A study of Mus musculus with 6 samples.

Results

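Integrins are transmembrane receptors built from 1 α and 1 β subunit, and they tie the extracellular matrix outside a cell to the actin cytoskeleton within it. The set described here holds the integrin subunit genes, 9 matrix proteins that integrins bind or that organise the matrix around them, and 3 cytoplasmic proteins of the adhesion complex, compared between motor neurons (MNs) made from Hb9 control and A2 SMA mouse embryonic stem cells (mESCs). Members were chosen by gene symbol alone: every symbol that begins with Itga or Itgb and is followed by a subunit letter or number, together with Fn1, Vtn, Tnc, Tnr, Spp1, Thbs1, Thbs2, Nid1, Nid2, Ptk2, Tln1 and Vcl. This gave 38 genes of the 34433 symbols in the deposited table, namely 26 integrin subunits, 9 matrix ligands and 3 cytoplasmic proteins. The rule uses no expression value.

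Spinal muscular atrophy (SMA) follows the loss of SMN, and the study asked how the transcripts of MNs differ when mouse Smn is missing. RNA-Seq was run on 6 samples, 3 from Hb9 control MNs (labelled wildtype) and 3 from A2 SMA MNs (SMN2+/+;mSmn-/-), both on the FVB/N background. Per the study's methods, the control line also carries the human SMN2 transgene (SMN2+/+;mSmn+/+), and both lines carry the HB9:eGFP reporter, in which the promoter of the MN gene Hb9 drives green fluorescent protein. The mESCs were kept on mouse embryonic fibroblasts, formed embryoid bodies, and received 1 µM retinoic acid (RA) and 1 µM Smoothened agonist (SAG) for 5 days in a medium that contained fibronectin protein, after which GFP-positive, propidium iodide-negative cells were collected by FACS. Each genotype is represented by 1 mESC line, so genotype and cell line cannot be told apart.

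The table gives 1 value per gene and genotype, the authors' estimate over the 3 samples in FPKM, the number of sequenced fragments that map to a gene scaled to its exon length and to the depth of the library. There are therefore no values of single samples, no SD and no test in what follows. The table does not tell how many reads stand behind a value, and counting errors are therefore not given. A ratio is always the FPKM in A2 SMA MNs over that in Hb9 control MNs, taken for genes at or above 1 FPKM in at least 1 genotype and above 0 in both. A gene was called higher or lower at a ratio of at least 2-fold, which describes these pooled values and is not a test of the genotypes. Over the 14926 genes past this filter the log2 ratios had a median of -0.29 and quartiles of -0.89 and 0.19, and 65.9% of genes had the lower value in A2 SMA MNs.

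Smn1, the targeted gene, had 137 FPKM in the Hb9 control and 5.26 FPKM in A2 SMA MNs, 25.9-fold lower. The cell type markers differed widely between the genotypes. All 5 markers of pluripotent cells were at least 2-fold higher in A2 SMA MNs (summed FPKM 187 in Hb9 control and 1375 in A2 SMA MNs). Of 6 MN markers analysed (252 and 59.2 FPKM summed over the 6), 5 were at least 2-fold lower, whereas Mnx1, the gene of Hb9 itself, had 41.2 and 44.2 FPKM. All 6 general neuronal markers analysed (1186 and 129 FPKM summed) and 5 of 6 markers of radial glia and neural progenitors (2142 and 219 FPKM summed over the 6) were at least 2-fold lower. Of 6 endothelial markers 5 passed the filter, 2 of them at least 2-fold higher and 1 lower (30.3 and 77.9 FPKM summed, of which Pecam1 alone had 21.8 and 68.7 FPKM). The sorted A2 SMA MNs thus had lower levels of most genes that define their labelled cell type than the controls. In bulk samples, fewer cells of a type and less RNA per cell cannot be told apart.

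Of the 38 members, 29 passed the filter. In A2 SMA MNs, 15 of the 29 were higher and 14 were lower, with a median log2 ratio of 0.10. This median is near 0 and its sign depends on the filter, being -0.08 at 5 FPKM or more and -0.03 with no filter or without the status FAIL. At least 2-fold higher were 5 members (Itgb7, Spp1, Itgal, Itga7 and Itgae), while 6.83% of all genes were called in this direction. At least 2-fold lower were another 5 (Itgb8, Itga4, Vtn, Thbs2 and Thbs1), beside 22.4% of all genes. The other 19 differed by less than 2-fold. Since the median gene was lower in A2 SMA MNs, the counts were also taken relative to it. On that scale 19 members were higher, 6 by at least 2-fold (the same 5 and Fn1, beside 10.4% of all genes), and 3 were at least 2-fold lower (Itgb8, Itga4 and Vtn, beside 16.5%). Of the 10 members called, 6 reached 1 FPKM in only 1 of the genotypes (Itgb8, Itga4 and Thbs2 in Hb9 control, Itgb7, Itgal and Itgae in A2 SMA MNs). These passed through the genotype in which they were high, so the counts describe the table and do not support a shift of the whole set.

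**Figure D1:**
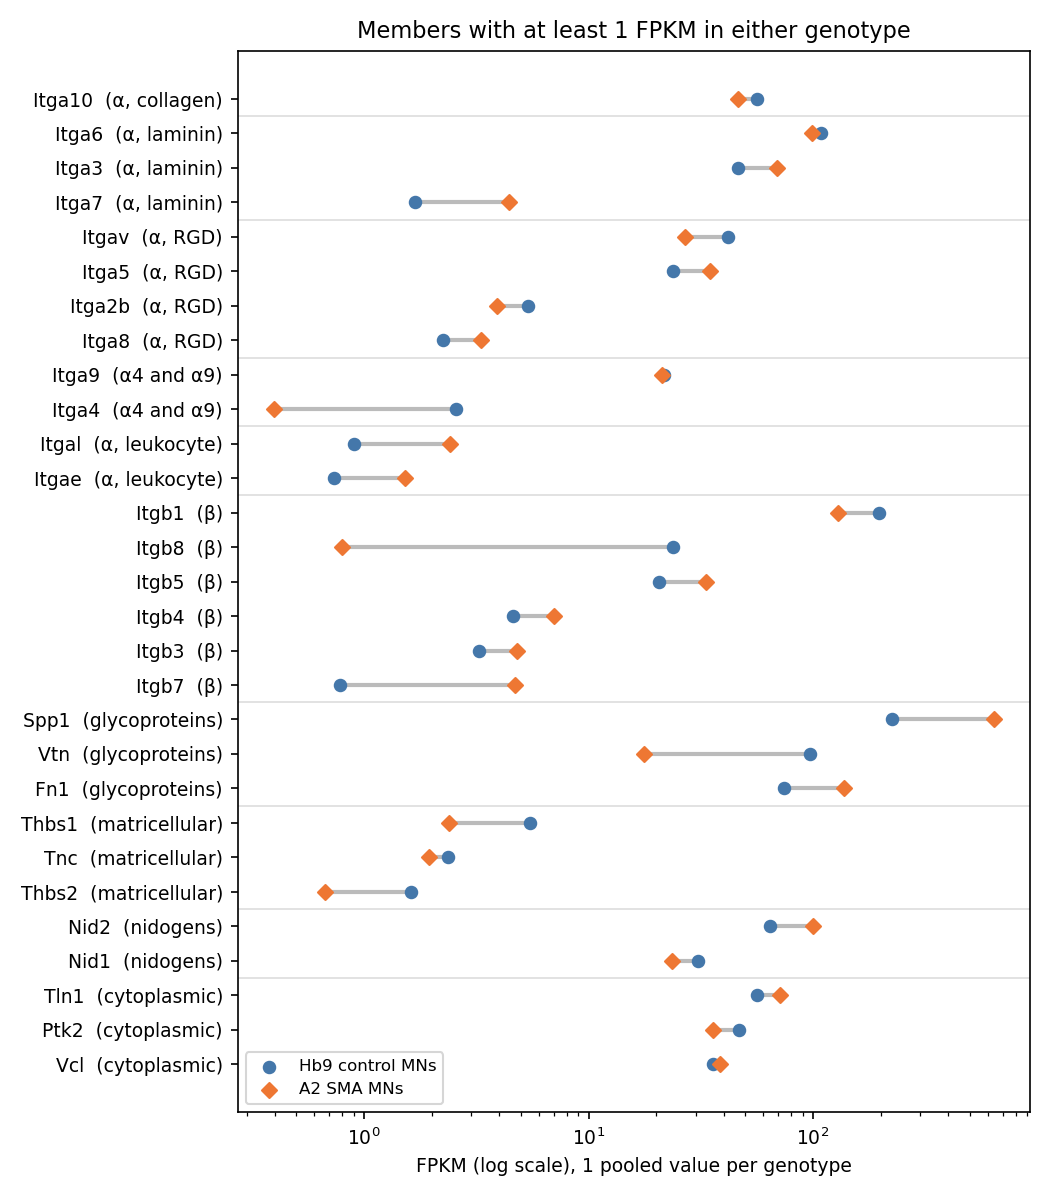
FPKM (horizontal axis, log scale) of the 29 members with at least 1 FPKM in either genotype, grouped by role, with circles for Hb9 control MNs and diamonds for A2 SMA MNs, each the authors' pooled value with no error available. The symbols lie far apart for Itgb8 (23.7 and 0.801 FPKM), Itga4, Vtn and Itgb7 and nearly touch for Itga6, Itga9 and Vcl, and the Itga10 value belongs to a merged locus.

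The matrix ligands come first. Many of these secreted glycoproteins carry an Arg-Gly-Asp (RGD) motif or a related site that integrins recognise. Spp1 (osteopontin), a phosphorylated glycoprotein bound by several αv integrins and by α4 and α9 integrins, was the most abundant member in both genotypes. It had 225 FPKM in Hb9 control MNs against 638 FPKM in A2 SMA MNs, a 2.83-fold higher value. In A2 SMA MNs it stood above 99.8% of the genes past the filter. Vtn (vitronectin), a plasma and matrix protein that binds αv integrins and is expressed by floor plate cells of the embryonic neural tube, went the other way. It had 97.4 FPKM in the Hb9 control and 17.6 FPKM in A2 SMA MNs, 5.52-fold lower (log2 ratio -2.46). Foxa2, an endoderm marker that floor plate cells also express, had 55.9 and 18.2 FPKM, and of 9 endoderm markers 8 passed the filter, 4 of them at least 2-fold lower, with a summed level of 917 and 453 FPKM. The part of such cells in the difference of Vtn was not tested.

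Vtn was thus above Fn1 in Hb9 control MNs and below it in A2 SMA MNs. Fn1 (fibronectin), the ligand of the α5 integrin, had 74.5 FPKM in Hb9 control MNs against 138 FPKM in A2 SMA MNs. This log2 ratio of 0.89 is under 2-fold, but relative to the median gene it was 1.18 and past it, and Cuffdiff gave this gene the status FAIL, which marks a comparison that did not complete. Fibroblasts, the cells of the mESC feeder layer, are rich in fibronectin. Per the methods, they were left to attach again to a flask while the floating mESCs were taken on, and the later sort was for GFP. Of 11 fibroblast markers 10 passed the filter, with 5 at least 2-fold lower and 1 higher in A2 SMA MNs and a summed level of 83.3 FPKM in Hb9 control and 46.1 FPKM in A2 SMA MNs. The part of such cells in the value of Fn1 was not tested.

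The sequences before the annotated starts of Spp1 and Vtn are shown because these ligands are the most abundant ones with at least a 2-fold difference, in opposite directions. They are RefSeq promoter windows of GRCm38.p6, a newer build than the NCBI m37 of the table, both on the + strand and written 5′ to 3′. The window of Spp1 is the 250 bases at chr5:104434861-104435110 and belongs to the first of 2 annotated starts, of which the table does not show which was used. That of Vtn is given for 221 bases at chr11:78498870-78499090, since the bases after them lie in an annotated transcript. Capitals mark matches to TATAAA or, on the other strand, TTTATA.
Spp1: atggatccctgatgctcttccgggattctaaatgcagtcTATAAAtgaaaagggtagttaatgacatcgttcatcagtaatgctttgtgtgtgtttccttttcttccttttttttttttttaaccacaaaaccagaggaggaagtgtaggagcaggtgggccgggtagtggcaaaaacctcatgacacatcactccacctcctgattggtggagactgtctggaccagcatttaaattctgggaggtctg
Vtn: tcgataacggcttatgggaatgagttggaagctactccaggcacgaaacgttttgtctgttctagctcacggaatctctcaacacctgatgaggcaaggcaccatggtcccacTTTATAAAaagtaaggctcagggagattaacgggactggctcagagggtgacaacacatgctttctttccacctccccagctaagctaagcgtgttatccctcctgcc
Spp1 had 1 match, which begins at position -211 counted from the start, and Vtn had 2 overlapping ones, at positions -137 and -135. Motifs and GC content were read over the full 250 bases before each start. Of all 32851 such windows, 12.4% held such a match on either strand, as did those of 4 of the 26 members that have an entry (Spp1, Vtn, Thbs2 and Tnc). The GC content was 43.6% for the window of Spp1 shown and 50.4% for Vtn, beside a median of 52.4% over all windows. The window of the second start of Spp1 had 35.6% GC and no TATAAA match. The motif GGGCGG, on either strand, was in 32.7% of all windows and in those of 9 members, and CAGCTG in 13.0% and 5 members. ATGCAAAT was in 1.60% and 2 members, Tnc and Spp1, for Spp1 in the window of its second start. For each motif the percentage counts single windows, whereas a member counted if any of its windows held a match. The percentages and the member counts are therefore not in the same unit. A match is a string of letters in a window and does not show that a factor binds there.

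The ligands grouped here as matricellular (Thbs1, Thbs2, Tnc and Tnr), which modulate adhesion more than they build the matrix, were at low levels. Spp1, often counted in this class too, was grouped with the glycoproteins above and was abundant. Thbs1 (thrombospondin-1), which binds several integrins and can activate latent TGF-β, had 5.50 FPKM in the Hb9 control and 2.40 FPKM in A2 SMA MNs, 2.29-fold lower. Its relative Thbs2 had 1.63 and 0.671 FPKM, 2.42-fold lower. Neither was 2-fold lower relative to the median gene, with log2 ratios of -0.91 for Thbs1 and -0.99 for Thbs2. Tnc (tenascin-C), found in embryonic and migrating tissue, had 2.36 and 1.94 FPKM (log2 ratio -0.28), which turns to 0.01 relative to the median gene. Tnr (tenascin-R), a matrix protein of the nervous system made by oligodendrocytes and some neurons, was just under the filter at 0.957 FPKM in Hb9 control MNs and had 0.0278 FPKM in A2 SMA MNs. All 4 genes of this group therefore had lower values in A2 SMA MNs, with Tnr outside the counts, whereas Spp1 had the higher value there.

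Nidogens link laminin to collagen IV in basement membranes. Nid2 had 64.3 FPKM in Hb9 control MNs against 100.2 FPKM in A2 SMA MNs (log2 ratio 0.64). Nid1 had 30.7 and 23.5 FPKM (log2 ratio -0.38). The genes of this pair differed in opposite directions as deposited, each by less than 2-fold, and relative to the median gene Nid1 was at -0.09. Over the ligands as a group, 8 of 9 passed the filter, 3 were higher and 5 lower, and the median log2 ratio was -0.33, beside -0.29 for all genes. With a filter of at least 5 FPKM it turned to 0.13, beside -0.28 for all genes.

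**Figure D2:**
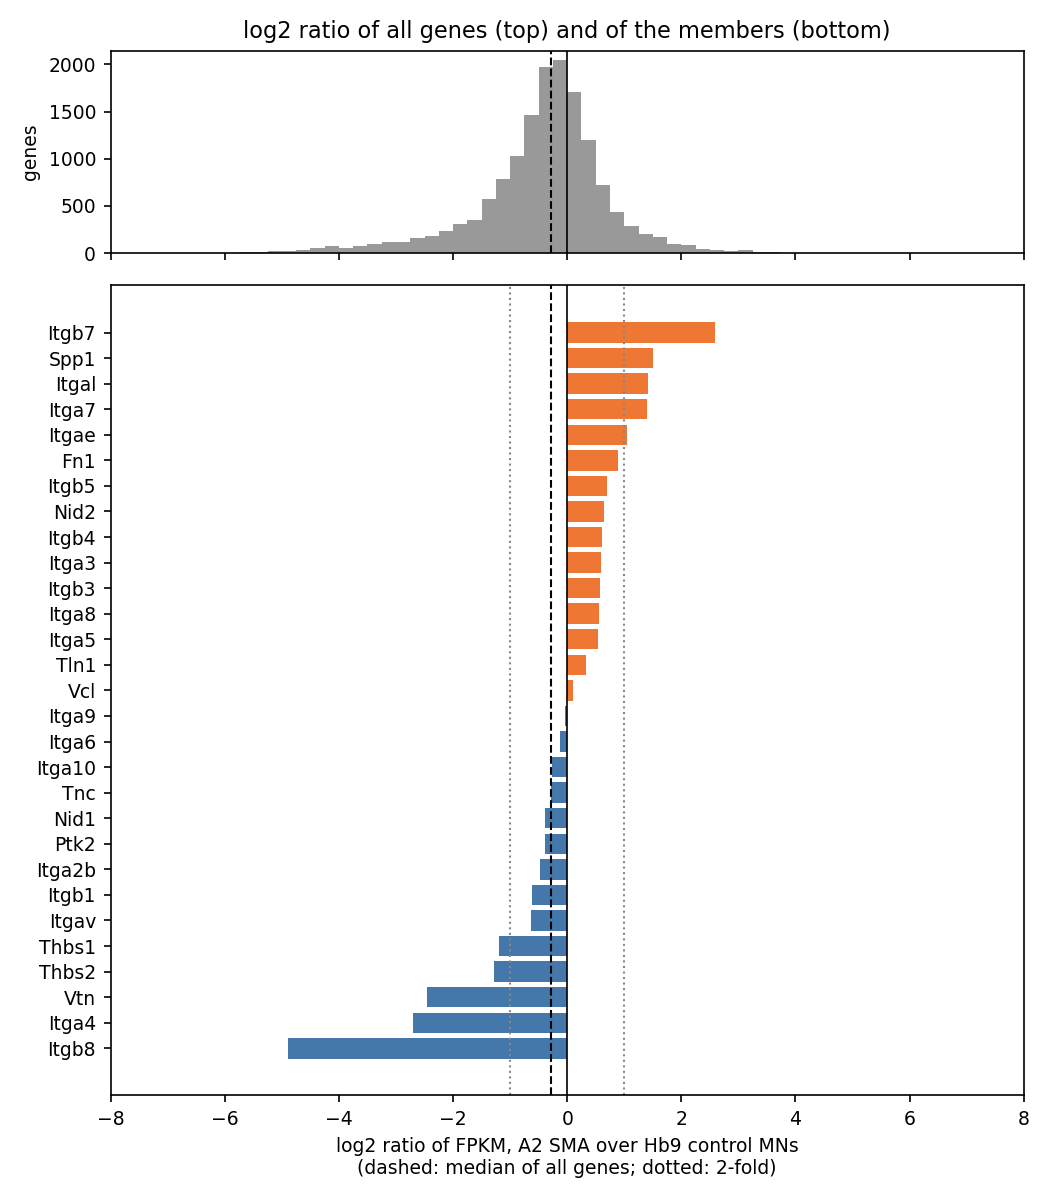
The upper panel counts genes by log2 ratio of FPKM (A2 SMA over Hb9 control MNs) for the 14926 genes past the filter, and the lower panel shows the log2 ratio of each of the 29 members as a bar. The dashed line is the median gene at -0.29 and the dotted lines are 2-fold, beyond which lie 5 members on either side, with Itgb7 at 2.60 and Itgb8 at -4.89.

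The α subunit sets which ligand an integrin binds. Among the laminin receptors, Itga6, whose product pairs with β1 or β4, was the most abundant α subunit in both genotypes. It had 108 FPKM in the Hb9 control and 98.5 FPKM in A2 SMA MNs (log2 ratio -0.13, and 0.16 relative to the median gene). Itga3 had 46.1 and 69.2 FPKM (log2 ratio 0.59, status FAIL), and the entries of Pdk2 and Gm11513 are listed over its whole chromosome span. Itga7, best known from skeletal muscle, had 1.68 FPKM in Hb9 control MNs against 4.43 FPKM in A2 SMA MNs, 2.63-fold higher. Of these 3 laminin-binding subunits, the abundant ones differed by less than 2-fold and the scarce one by more.

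The RGD-binding subunits all differed by less than 2-fold. Itgav, which pairs with 5 β subunits and binds vitronectin and osteopontin, had 41.7 FPKM in the Hb9 control and 27.0 FPKM in A2 SMA MNs (log2 ratio -0.63). Itga5, the subunit of the classical fibronectin receptor, had 23.9 and 34.8 FPKM (log2 ratio 0.54). Itga5 and its ligand Fn1 thus both had higher values in A2 SMA MNs, and Itgav and its ligand Vtn both had lower ones. Spp1, another ligand of αv integrins, went against Itgav, with the higher value in A2 SMA MNs. Itgb5, a β partner of αv in a vitronectin receptor, went against Vtn (log2 ratio 0.70). Ligands and subunits pair in several ways, so such matches are picked from pairs that go both ways. Itga8, which pairs with β1, had 2.25 and 3.32 FPKM (log2 ratio 0.57). Itga2b, the platelet subunit of the fibrinogen receptor, had 5.40 and 3.90 FPKM (log2 ratio -0.47). Among platelet markers Gp9 was listed at 0 in both genotypes, and Pf4 was listed at 0 in Hb9 control MNs and had 0.214 FPKM in A2 SMA MNs.

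Itga4 and Itga9 encode a related pair of subunits that bind VCAM-1, osteopontin and other ligands. Itga4 had 2.57 FPKM in Hb9 control MNs against 0.395 FPKM in A2 SMA MNs, 6.51-fold lower (log2 ratio -2.70). Its entry is listed with a span on chromosome 2 from 79095582 to 79301264 (NCBI m37, as are the positions that follow). The merged entry of Cerkl and the neuronal transcription factor gene Neurod1, with 27.6 and 4.94 FPKM, is listed over that whole span. A small RNA, U6, is listed over it as well, so a listed span can be wider than its gene. Such spans do not show that genes overlap. Whether reads were counted by strand is not given in the sources used here. Whether Itga4 shares reads with that merged entry cannot be told. Of the 38 members, 18 have a listed span that lies within that of another entry. For 10 of them this is a named gene of at least 1 FPKM. Their values carry the same limit. Itga9 had 21.6 FPKM in the Hb9 control and 21.1 FPKM in A2 SMA MNs (log2 ratio -0.03, and 0.26 relative to the median gene). The genes of this pair therefore stood far apart in their ratios, and Itga9 was the more abundant in both genotypes.

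Collagen-binding α subunits had low values. Itga1 had 0.570 and 0.410 FPKM, Itga2 had 0.222 and 0.140 FPKM, and Itga11 had 0.272 and 0.192 FPKM in Hb9 control and A2 SMA MNs. All 3 were under the filter. Itga10 shares 1 entry with other genes, and how much of that entry belongs to Itga10 cannot be read from the table. The entry is counted among the members past the filter and drawn in the plots, and it differed by less than 2-fold.

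The leukocyte α subunits, which pair with β2 or β7 on immune cells, had low values in both genotypes. Itgal had 0.902 FPKM in Hb9 control MNs against 2.40 FPKM in A2 SMA MNs (log2 ratio 1.41). Itgae had 0.734 and 1.53 FPKM (log2 ratio 1.06) in the highest of its 3 entries. With the 3 entries summed the log2 ratio of Itgae was 0.93, under 2-fold. The entry of Gsg2, at 12.4 and 13.9 FPKM, is listed over the whole span of the highest Itgae entry. Itgam, Itgad and Itgax stayed under the filter, with Itgam at 0.362 and 0.792 FPKM and Itgax listed at 0 in Hb9 control MNs. Markers of leukocytes were low as well, since 1 of 7 leukocyte and platelet markers passed the filter (Cd68, a lysosomal protein, at 16.6 and 23.0 FPKM), and the list summed to 17.7 and 25.1 FPKM. Ptprc, the gene of the pan-leukocyte antigen CD45, had 0.0173 and 0.0156 FPKM. Csf1r, the receptor of a macrophage growth factor, had 0.219 and 0.789 FPKM, and Cd52, a lymphocyte surface antigen, had 0.610 and 0.965 FPKM. Tyrobp, an adaptor of myeloid and natural killer cells, had 0.228 and 0.0904 FPKM. The part of leukocytes in the values of these subunits was not tested.

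The β subunit anchors the integrin to the cytoskeleton and decides which α subunits can be used. Itgb1, the partner of most α subunits listed above, was the most abundant integrin gene in both genotypes. On chromosome 8 from 131209553 to 131257100, it had 198 FPKM in the Hb9 control and 130 FPKM in A2 SMA MNs (log2 ratio -0.61, and -0.32 relative to the median gene). It stood above 97.2% of genes in Hb9 control and 95.0% in A2 SMA MNs.

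Itgb8 differed most among the members past the filter. Its product pairs with αv alone, and this integrin holds and activates latent TGF-β, a role known from neural progenitors and glia of the developing brain, where it matters for the growth of blood vessels. On chromosome 12 from 120396494 to 120477275, Itgb8 had 23.7 FPKM in Hb9 control MNs against 0.801 FPKM in A2 SMA MNs, 29.7-fold lower (log2 ratio -4.89). A lower ratio was found for 0.616% of all genes past the filter. The markers of 3 neural lists were also lower in the same samples, with a median log2 ratio of -3.12 for radial glia and neural progenitors, -3.52 for MNs and -3.89 for neurons in general. Within the first list the log2 ratios ran from -6.65 for Fabp7 to -0.07 for Pax6. The part of any of these cells in the value of Itgb8 was not tested.

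The other 4 β subunits past the filter had higher values in A2 SMA MNs. Itgb5, another partner of αv and a vitronectin receptor, had 20.6 FPKM in the Hb9 control and 33.4 FPKM in A2 SMA MNs (log2 ratio 0.70). Itgb3, which serves with αv or with the platelet subunit, had 3.24 and 4.82 FPKM (log2 ratio 0.57). Itgb4, the partner of α6 in hemidesmosomes of epithelia, had 4.59 and 7.04 FPKM (log2 ratio 0.62). Itgb3, Itgb4 and Itgb5 differed by less than 2-fold, and each lay between 0.86 and 0.99 relative to the median gene on the log2 scale.

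Itgb7 had the highest ratio of the members past the filter. It encodes a subunit that pairs with α4 or αE on lymphocytes and guides them to the gut. On chromosome 15 from 102046396 to 102062402, it had 0.780 FPKM in Hb9 control MNs against 4.72 FPKM in A2 SMA MNs, 6.05-fold higher (log2 ratio 2.60), and 99.2% of genes past the filter had a lower ratio. Its partner genes were both scarce and differed in opposite directions, Itga4 being lower and Itgae higher in A2 SMA MNs. The markers of pluripotent cells were higher in the same samples, among them Pou5f1 with 98.3 and 775 FPKM, and their part in the values of Itgb7, Itga7 and Spp1 was not tested. Itgb2 and Itgb6 were under the filter in both genotypes.

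The make-up of the subunits was also compared as shares of their summed FPKM. The 17 α subunits other than Itga10 summed to 256 FPKM in the Hb9 control and 268 FPKM in A2 SMA MNs. Itga6 held 42.2% and 36.7% of that sum, Itga3 18.0% and 25.8%, Itgav 16.3% and 10.1%, and Itga5 9.31% and 13.0%. The order of the leading α subunits was Itga6, Itga3, Itgav, Itga5 and Itga9 in Hb9 control MNs, and Itga5 came before Itgav in A2 SMA MNs. With no spread between samples, neighbours in this order could not be separated.

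The 8 β subunits summed to 251 FPKM in Hb9 control MNs against 181 FPKM in A2 SMA MNs. Itgb1 held 78.8% and 71.7% of the sum, Itgb8 9.47% and 0.443%, Itgb5 8.21% and 18.5%, and Itgb7 0.311% and 2.61%. Apart from Itgb1, the β partners of αv are Itgb3, Itgb5, Itgb6 and Itgb8, and they summed to 47.7 and 39.2 FPKM. Within these 4, Itgb8 held 49.8% in Hb9 control MNs and 2.0% in A2 SMA MNs, while Itgb5 held 43.2% and 85.4%. The transcripts of αv partners outside Itgb1 were thus split almost evenly between Itgb8 and Itgb5 in Hb9 control MNs and were mostly Itgb5 in A2 SMA MNs. Such shares are of transcripts and do not measure which dimers form at the cell surface.

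**Figure D3:**
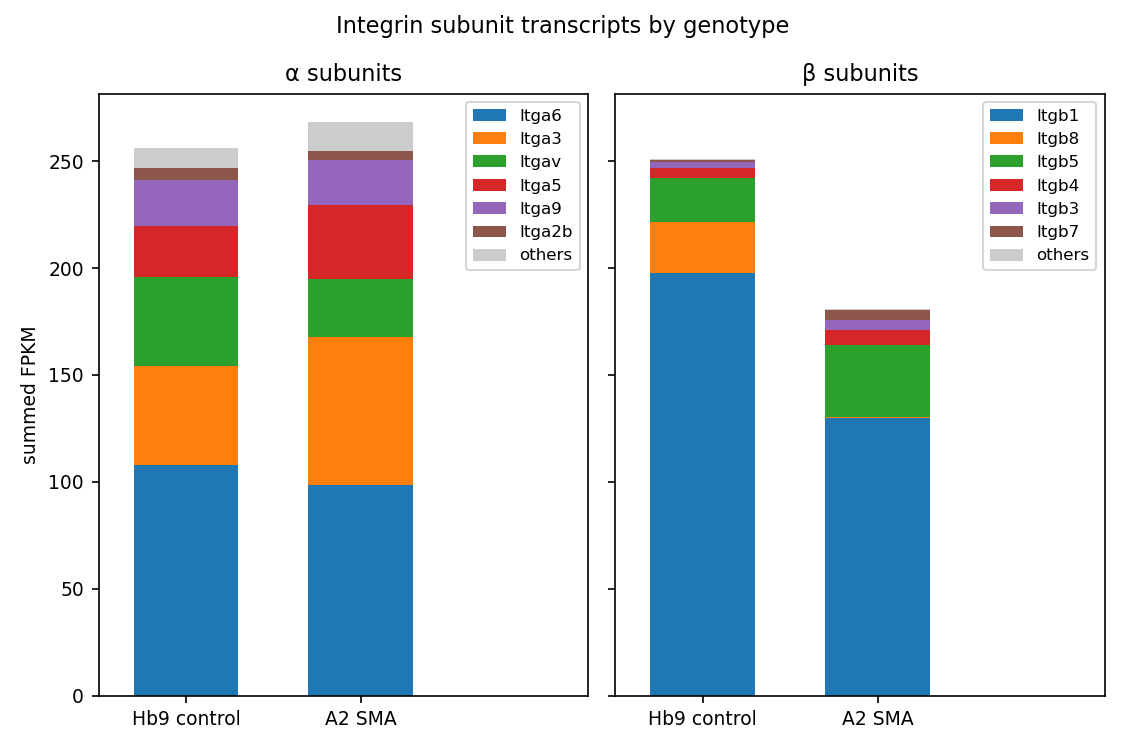
Stacked bars of summed FPKM (vertical axis, from 0) of the 17 α subunits without Itga10 (left) and the 8 β subunits (right) in Hb9 control and A2 SMA MNs, coloured by gene, with 1 pooled value per genotype and no error available. The α bars are of nearly equal height (256 and 268 FPKM), and the β bar is lower in A2 SMA MNs (251 and 181 FPKM), where the Itgb8 segment is too thin to see.

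Inside the cell, talin and vinculin couple the β tail to actin, and focal adhesion kinase (FAK) relays the signal. Tln1, which switches integrins to their active state, had 56.3 FPKM in the Hb9 control and 71.1 FPKM in A2 SMA MNs (log2 ratio 0.34). The entries of Creb3, Rgp1, Gba2 and Msmp, each lower in A2 SMA MNs, are listed over its whole span. Ptk2, the gene of FAK, had 47.0 and 35.9 FPKM (log2 ratio -0.39), and Vcl, the gene of vinculin, had 35.7 and 38.3 FPKM (log2 ratio 0.10). Both have the status FAIL. None of these 3 reached 2-fold in either direction.

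The wider adhesion pathway was read from 35 further genes, of which 33 passed the filter. In A2 SMA MNs 12 were higher and 21 lower, with a median log2 ratio of -0.18, and 2 were at least 2-fold higher and 5 at least 2-fold lower. Relative to the median gene the counts were 2 and 3. The shares of all genes called, given above, were 6.83% and 22.4% as deposited. The 5 with the highest FPKM in either genotype were actin-binding or adaptor genes. Actn4 (an α-actinin that crosslinks actin) had 273 and 443 FPKM, Flna (filamin A, which binds β tails) 378 and 235 FPKM, Vasp (an actin-elongating protein) 96.9 and 149 FPKM, Actn1 116 and 124 FPKM, and the adaptor Crk 122 and 73.7 FPKM. All 5 differed by less than 2-fold, and Actn4, Flna and Actn1 have the status FAIL.

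A kinase had the highest ratio of the pathway genes. Ptk2b, which encodes PYK2, the closest relative of FAK, had 1.52 FPKM in Hb9 control MNs against 10.4 FPKM in A2 SMA MNs, 6.87-fold higher (log2 ratio 2.78, status FAIL). FAK itself was the more abundant of the pair in both genotypes, with the values of Ptk2 given above. Fyn, a Src-family kinase that acts downstream of integrins and in axon growth, had 106 and 39.4 FPKM (log2 ratio -1.43). Src, picked out after its values were seen, had 38.9 and 31.5 FPKM (log2 ratio -0.30, and -0.01 relative to the median gene).

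Among the adaptors, Tgfb1i1 (Hic-5, a relative of paxillin) had 27.2 FPKM in the Hb9 control and 6.93 FPKM in A2 SMA MNs (log2 ratio -1.97). Tns1, a tensin that ties β tails to actin, had 15.7 and 3.93 FPKM (log2 ratio -2.00, status FAIL). Its relative Tns3 had 22.5 and 35.4 FPKM (log2 ratio 0.65, status FAIL). The other genes past 2-fold, picked out after their values were seen, were Parva (log2 ratio -1.18), Arhgef7 (-1.11, status FAIL) and the scarce Parvg (1.38). Relative to the median gene Parva was at -0.89 and Arhgef7 at -0.82, both under 2-fold. The kindlin gene Fermt2 and the paxillin gene Pxn, also picked out afterwards as core parts of the complex, had log2 ratios of 0.12 and 0.16. Ilk and Zyx of the same list, picked out afterwards too, were lower, with -0.80 and -0.74.

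**Figure D4:**
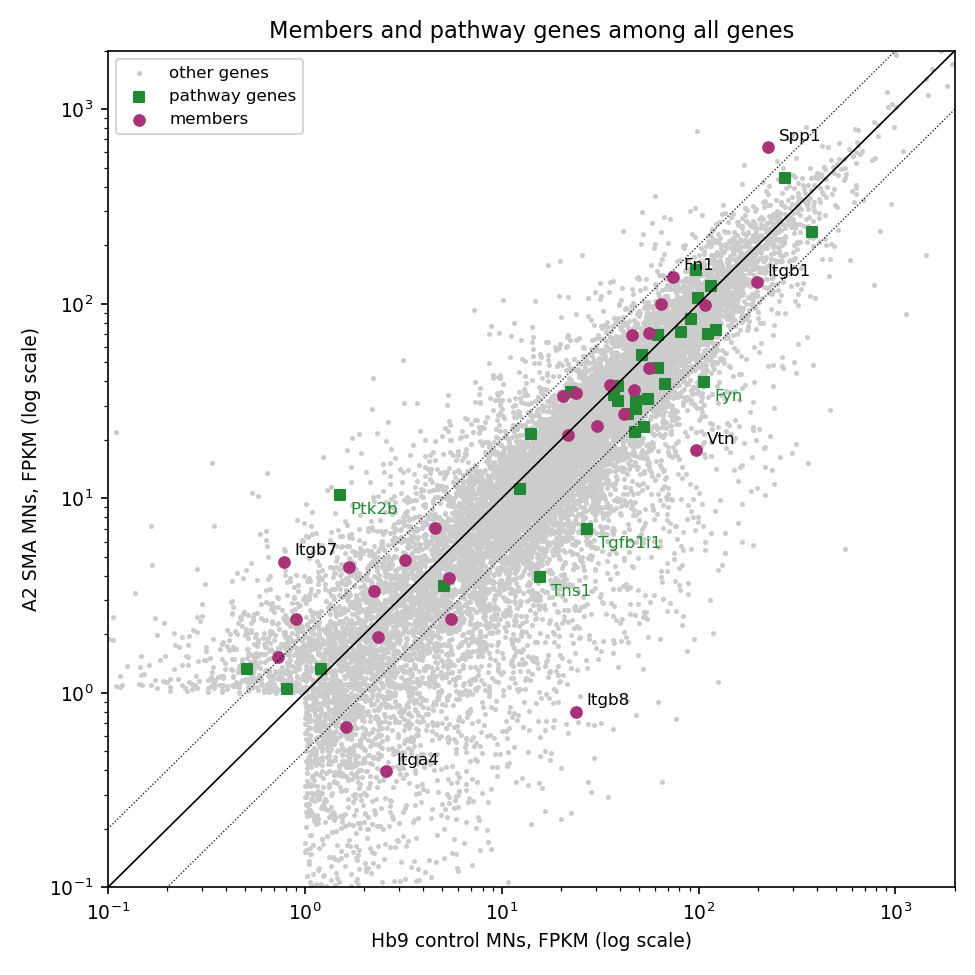
FPKM in A2 SMA MNs (vertical axis, log scale) against FPKM in Hb9 control MNs (horizontal axis, log scale) for all genes past the filter that lie within the axes, with members as circles, the pathway genes as squares and the dotted lines at 2-fold. Itgb8, Itga4 and Vtn lie below the lower dotted line and Itgb7 and Spp1 above the upper one, while most members and pathway genes lie between the lines.

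Over the 26 integrin subunits 18 passed the filter, with 4 at least 2-fold higher (6.83% of all genes) and 2 at least 2-fold lower (22.4% of all genes), and the median log2 ratio was 0.56, beside -0.29 for all genes. Of the 4 higher subunits, Itgb7, Itgal and Itgae passed only through A2 SMA MNs. This median rests on scarce subunits. With a filter of at least 5 FPKM in either genotype it was -0.13, beside -0.28 for all genes. At that filter 1 member of the whole set (Spp1) was at least 2-fold higher, beside 4.81% of all genes, and 3 were at least 2-fold lower (Itgb8, Vtn and Thbs1), beside 20.02%. The abundant subunits Itgb1, Itga6, Itga3 and Itgav, by contrast, all differed by less than 2-fold.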

How the data were processed

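RNA-Seq libraries (TruSeq, total RNA) of 3 samples per genotype were processed by the authors. Per the submitters' notes and the study's methods, reads were checked with FastQC 0.10.1, trimmed with cutadapt, mapped with TopHat2 2.04 to NCBI m37 with Ensembl annotation, and assembled and compared with Cufflinks and Cuffdiff. The authors deposited 1 FPKM value per gene and genotype, pooled over samples. The columns of their own comparison (fold change, statistic, p, q and significance) were not used, and the status column served only to mark genes whose comparison did not complete (FAIL). Depth per sample is not in the table.

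Ratios were computed in Python 3.11.15 (pandas 2.3.3, numpy 2.4.6) and drawn with matplotlib 3.10.9. Per symbol the entry with the highest FPKM was used. Log2 ratios had no pseudocount. The steps were run on a copy of the values with set ratios and no noise, which checks the arithmetic only. The rule for members uses symbols only, but it, the gene lists and the alternatives were chosen with earlier results of these data known. Every member past the filter is given with its values except Itga10, which lies in a merged entry. Of the pathway genes, those named are the 5 with the highest FPKM in either genotype and, at 5 FPKM or more, the 3 highest and 3 lowest in ratio, besides genes said to be picked out afterwards. Markers Slc18a3, Tubb3, Map2 and Sox1 were not analysed here. RefSeq promoters (GRCm38.p6) were joined by symbol for 26 of 38 members.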

Additional observations from a re-analysis of the deposited data

How the results depend on the processing

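The table gives 1 value per genotype, which left no replicate to leave out. No paired analysis was possible because the table carries no values of single samples. Of 276 values of the 29 members over the alternatives, 263 kept their side of 2-fold. Many of these repeat the main value by design and say nothing on robustness. Another filter, or leaving out merged entries or the status FAIL, either left a ratio as it was or removed the member. Summing entries could change Itgae alone. The 10 that no longer reached 2-fold belong to Itgae, Itgal, Thbs1 and Thbs2, and the 3 that newly reached it to Fn1 under the 3 other scalings. Itga6, Itga9, Itga10 and Tnc, all under 2-fold, changed sign in 10 values under other scalings. The count of 5 members at least 2-fold higher became 3 with 1 FPKM added to both genotypes and 1 with a filter of 5 FPKM, and 10 at 1.5-fold and 1 at 4-fold. The count of 5 lower became 3 with 1 FPKM added, with the filter of 5 FPKM, centred on the median gene, scaled to the upper quartile, and at 4-fold. The median log2 ratio of the integrin subunits went from 0.56 to -0.13 with the filter of 5 FPKM, which leaves out scarce subunits. Of the pathway genes, the 2 higher became 1 with 1 FPKM added, with the filter of 5 FPKM, without the status FAIL and at 4-fold, and 6 at 1.5-fold. The 5 lower became 3 centred on the median gene, scaled to the upper quartile or without the status FAIL, 13 at 1.5-fold and 0 at 4-fold. The shares of all genes called higher and lower were 4.38% and 17.3% with 1 FPKM added, 4.81% and 20.02% with the filter of 5 FPKM, 10.4% and 16.5% both centred on the median gene and scaled to the upper quartile, 7.02% and 23.4% without the status FAIL, 12.7% and 35.4% at 1.5-fold and 1.80% and 8.88% at 4-fold. Values under 1 FPKM may rest on few reads, and the table does not give their number.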
